A study of Mus musculus with 22 samples.

Results

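Genes of thymocyte development and T cell receptor (TCR) signalling were followed in 3 organs, the thymus and 2 parts of the brain, of mice with the Tol transgene and of their WT littermates. The set holds 35 genes, listed by name from what is known of these pathways, though with earlier results of these data known. All 35 were found among the 34585 entries of each of the 3 count tables. Bulk RNA sequencing covered 4 mice per genotype for thymus and the same for cerebrum, while cerebellum had 2 libraries of Tol and 4 of WT mice, 22 libraries in all. Tol mice carry 1 copy of a transgene, placed 3′ of Col1a1 in embryonic stem cells and driven by the ubiquitous CAG promoter, that encodes a large scrambled fusion of reporter and modifier proteins. The mice descend from targeted stem cells of C57BL/6 background, and the labels give that strain for both genotypes but neither age nor sex. Levels are CPM, the counts of a gene scaled to a fixed library total, adjusted by TMM over the 22 libraries, and differences are log2 differences from edgeR's quasi-likelihood test, called at a Benjamini-Hochberg adjusted p under 0.05 over all genes tested.

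T cell precursors enter the thymus lacking both coreceptors, pass through a stage that carries CD4 and CD8 together, and leave as cells with one or the other. In the first stage Notch1 signalling and the factors Tcf7, Gata3 and Bcl11b commit cells to the T lineage. Rag1 and Rag2 begin to cut the receptor genes there, and the pre-TCR chain Ptcra tests the beta chain. Once a complete receptor is on the surface, the CD3 chains pass its signal to the kinases Lck and Zap70 and the adaptor Lat, and the strength of that signal decides between survival, death and the choice of lineage. In bulk tissue, fewer cells of a type and less RNA per cell cannot be told apart.

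Total counts ranged from 14543698 to 34776973 per library, so that 3 counts, taken as the limit of detection, corresponded to 0.0757 to 0.233 CPM. The transgene was read at 19.5 to 25.8 CPM in Tol thymus, 147.9 to 173.8 in Tol cerebrum and 142.1 to 194.0 in Tol cerebellum, and at no more than 0.120 CPM in any WT library. Some libraries stood apart from the others of their group. The library labelled thymus Tol 1 was the deepest and had 1187 CPM of Mki67, a gene of dividing cells, against 610.3 to 679.7 in the other Tol thymi. The library labelled cerebellum Tol 2 went against its label, with 13.0 CPM of the granule cell gene Gabra6 against 329.4 to 806.3 in the other cerebella. Cerebrum WT 3 and cerebrum Tol 4 had 139.2 and 72.9 CPM of Drd1, a dopamine receptor gene of the striatum, against 9.02 to 15.2 in the other cerebra. Some of the results that rest on these libraries are given with and without them.

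In WT thymus all 35 genes were above 5 CPM in every library, and per kilobase of transcript their mean levels ran from 1236 for Tcf7 down to 7.58 for Runx3. Tcf7, a transcription factor that starts and maintains the T lineage programme, stood clear of every other member. Below it, the surface protein Thy1 (718.2 CPM per kilobase), the recombinase Rag1 (677.8), the nucleotide-adding polymerase Dntt (573.7), the coreceptor chain Cd8b1 (558.2) and the kinase Lck (525.0) followed in that order, each overlapping the next in its range over the 4 mice. Cd8a (399.4), the membrane adaptor Lat (393.1), Cd3g (343.0), the chromatin organizer Satb1 (329.8), Cd3e (306.8) and Cd4 (272.6) came next.

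The lower end of that order held genes of early and of late stages. Ptcra was at 19.7 CPM per kilobase, and the interleukin 7 receptor chain Il7r, used before and after but little during the double-positive stage, at 17.8. Gata3 (17.5), needed at commitment and for the CD4 lineage, overlapped Il7r. The 2 factors of the final lineage choice were the lowest of all, with 7.94 for Zbtb7b, which directs cells to the CD4 lineage, and 7.58 for Runx3, which directs them to the CD8 lineage, and their ranges overlapped. Ccr7 (30.3), the receptor that takes selected cells into the medulla, and Cd69 (29.5), a sign of recent receptor signalling, lay between them and the CD3 chains.

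**Figure D1:**
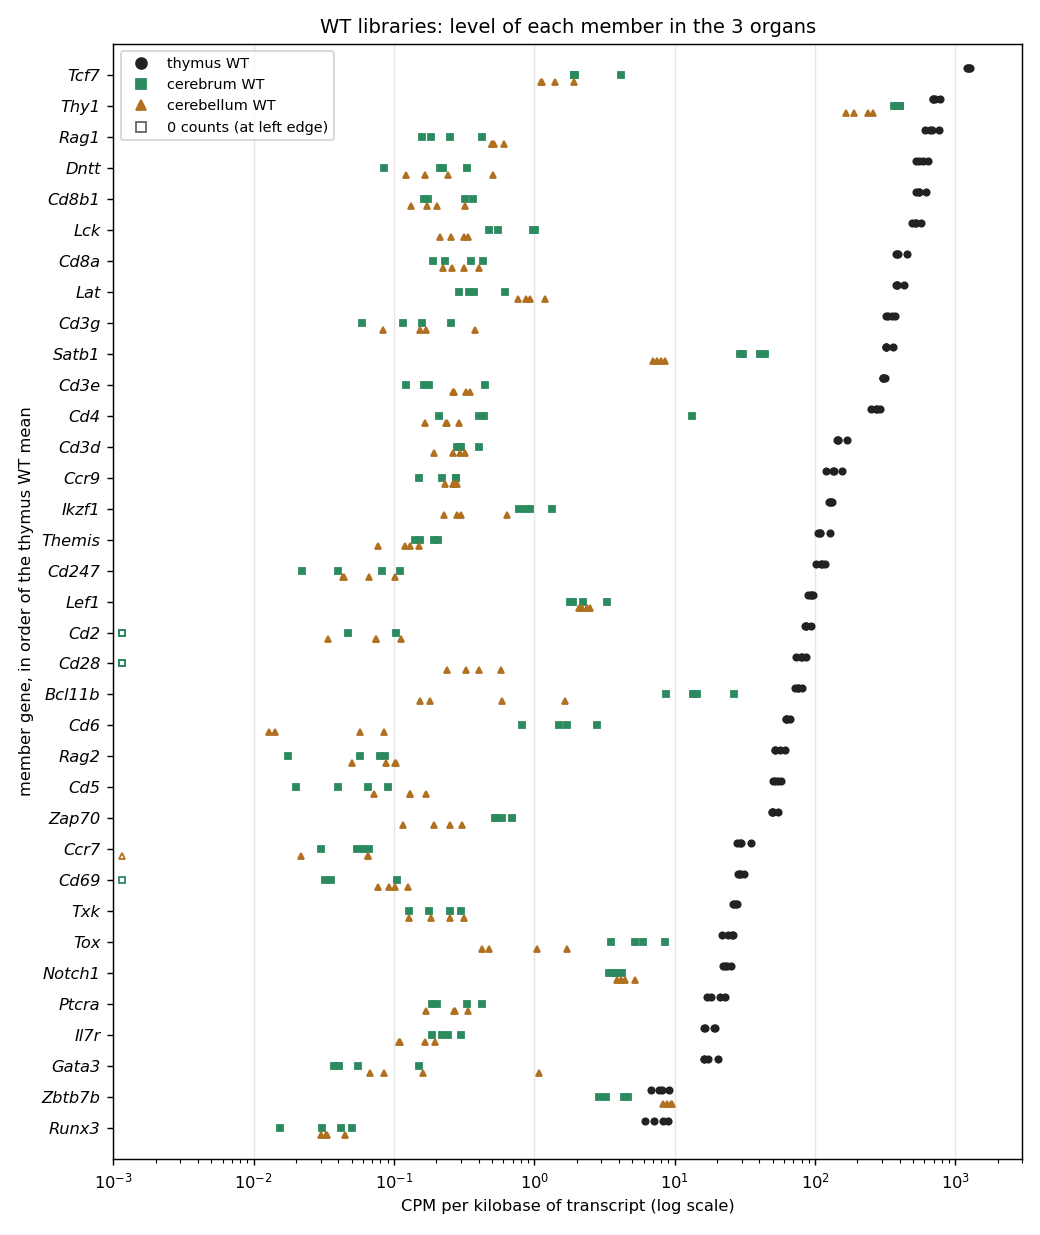
Level of the 35 genes in every WT library of thymus (circles), cerebrum (squares) and cerebellum (triangles), 4 mice each, as CPM per kilobase of transcript on a log axis, with genes ordered by their thymus mean; open symbols at the left edge mark libraries with 0 counts. Thymus points span 7.58 to 1236 from Runx3 to Tcf7 in group means, and Thy1 and Zbtb7b are the genes whose brain levels lie nearest to those of thymus.

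The comparison of Tol with WT thymus asked whether carrying the transgene changed any stage of T cell development as seen in RNA. None of the 35 genes passed the adjusted threshold in edgeR, where 0.0985% of the 16248 genes tested did. At an unadjusted p under 0.05, 11 members differed, 5 higher and 6 lower in Tol, which is 31.4% of the members beside 24.4% of all genes tested. The median log2 difference of the members was -0.02 and that of all genes 0.01. DESeq2 called 9 members, beside 4.67% of its tested genes, and edgeR without thymus Tol 1 called the same 9, beside 18.2% of all genes. These were Il7r, Rag1, Tcf7 and Ccr9, lower in Tol, and Cd3d, Cd3g, Cd2, Cd6 and Txk, higher. The groups did not overlap for 6 of 35 members, 3 higher and 3 lower, beside 6.08% and 4.51% of all genes (10.6% together).

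**Figure D2:**
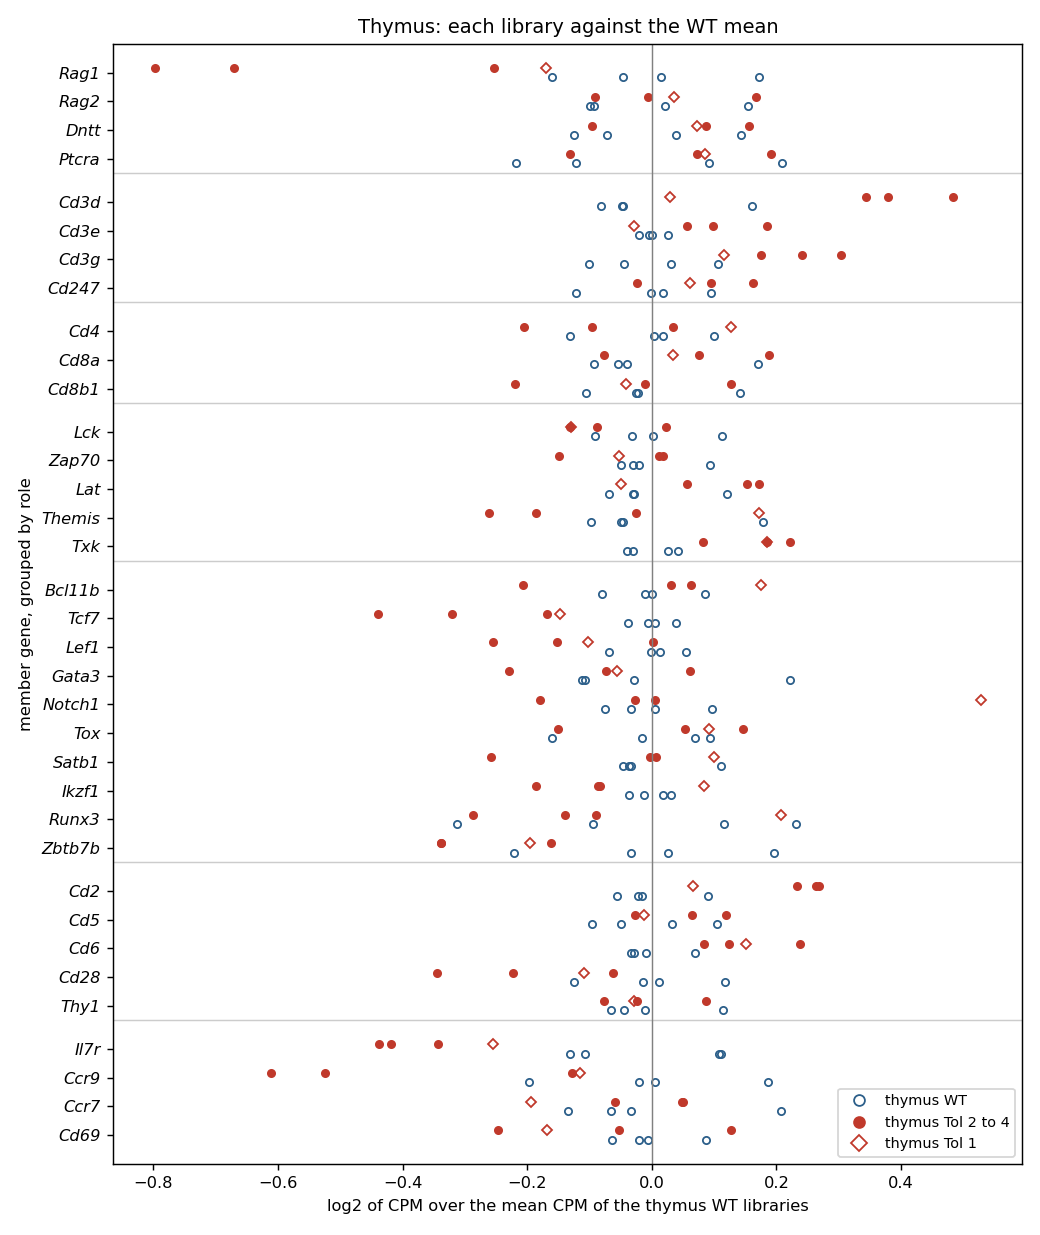
Each thymus library's CPM of the 35 genes over the mean of the 4 WT thymi, as log2, with genes grouped by role; open blue circles are WT mice, filled red circles Tol 2 to 4 and open red diamonds Tol 1. Rag1, Il7r and Tcf7 have all 4 Tol points left of the WT points, Cd3g, Cd6 and Txk have them to the right, and the other 29 genes overlap.

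Among the recombination genes, Rag1 had the widest difference of any member. Rag1 (chr2:101638282-101649501, minus strand, GRCm38), the subunit that cuts DNA at the recombination signals, was read at 3980, 2813, 3757 and 2576 CPM in Tol thymi 1 to 4 and at 4525, 4336, 4008 and 5047 CPM in the WT thymi. The Tol values lay below every WT value, Tol 1 narrowly and Tol 2 and Tol 4 by a wide margin. The log2 difference was -0.44 (SE 0.13, adjusted p = 0.0927 in edgeR), and it was -0.52 without Tol 1 (adjusted p = 0.0150). Leaving out each thymus library in turn gave -0.52 to -0.34, with adjusted p from 0.0150 to 0.254 in edgeR. Rag1 shares exon sequence with B230118H07Rik, annotated on the same strand and read at 19.3 to 29.7 CPM in Tol and 11.7 to 14.0 in WT thymus, so part of its count is uncertain.

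Its partner gene overlapped between the genotypes. Rag2 (chr2:101624718-101632529, plus strand), which binds marked chromatin and completes the recombinase, was at 193.7, 188.3, 212.4 and 177.5 CPM in Tol and 191.9, 177.2, 176.5 and 210.5 in WT thymi, with no separation of the groups (log2 difference 0.04, SE 0.07, adjusted p = 0.764). The ratio of Rag1 to Rag2 within a library, which no scaling can move, was 20.5, 14.9, 17.7 and 14.51 in Tol and 23.6, 24.5, 22.7 and 24.0 in WT thymi. All Tol ratios were below all WT ratios, with means of 16.9 ± 2.80 (SD, n = 4) and 23.7 ± 0.748 (SD, n = 4). Dntt, which adds nucleotides at the joints, had a log2 difference of 0.07 (SE 0.08), and Ptcra one of 0.07 (SE 0.10), with adjusted p of 0.612 and 0.716 in edgeR.

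The CD3 chains were the only role in which every member had a positive difference, 4 of 4, and 2 of them had an unadjusted p under 0.05. They form the signalling part of the receptor, and Cd3g, Cd3d and Cd3e are neighbours on chromosome 9 with Cd3g and Cd3d starting 1355 bases apart in opposite directions. Cd3d was at 248.6, 340.8, 309.0 and 316.8 CPM in Tol and 236.0, 235.8, 230.1 and 272.5 in WT thymi. Tol 2, 3 and 4 were above all WT mice and Tol 1 lay inside the WT range (log2 difference 0.33, SE 0.10, adjusted p = 0.0991). Without Tol 1 the difference was 0.44 (adjusted p = 0.00667). Over the edgeR fits that each left out 1 library it was 0.27 to 0.44, with adjusted p from 0.00667 to 0.274.

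Cd3g was at 380.5, 433.0, 414.9 and 396.4 CPM in Tol and 327.1, 340.3, 358.4 and 377.9 in WT thymi, where the groups did not overlap but came close. Its log2 difference was 0.22 (SE 0.07, adjusted p = 0.111). For Cd3e, whose tail recruits signalling proteins, the difference was 0.09 (SE 0.07, adjusted p = 0.422). Among the alternative fits that left out no library, the lowest value for Cd3e was 0.00171, so its positive sign depends on the processing. Cd247, the zeta chain with the largest share of the signalling motifs, had 0.09 (SE 0.06, adjusted p = 0.430). Exons of Cd247 and Cd3e overlap genes annotated on the other strand, as do those of Rag2, Themis, Lef1, Gata3, Notch1, Tox, Satb1, Zbtb7b and Ccr9, and the strand setting of the counting is not given.

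The sequences upstream of Rag1, Cd3d and Cd3g are shown because these genes had the widest differences of their roles and because the Cd3 pair starts within a short stretch. The letters are the 250 bases before each start in RefSeq (GRCm38.p6), 5′ to 3′ on the gene's strand, with E-boxes (CANNTG, a palindrome bound by the E proteins of early T cells) in capitals.
Rag1, chr2:101649533-101649782, minus strand: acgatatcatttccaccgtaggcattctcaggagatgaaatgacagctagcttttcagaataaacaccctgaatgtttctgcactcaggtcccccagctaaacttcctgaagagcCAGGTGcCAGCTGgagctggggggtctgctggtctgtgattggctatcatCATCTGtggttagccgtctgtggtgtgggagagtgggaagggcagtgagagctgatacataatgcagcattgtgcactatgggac
Cd3d, chr9:44981536-44981785, plus strand: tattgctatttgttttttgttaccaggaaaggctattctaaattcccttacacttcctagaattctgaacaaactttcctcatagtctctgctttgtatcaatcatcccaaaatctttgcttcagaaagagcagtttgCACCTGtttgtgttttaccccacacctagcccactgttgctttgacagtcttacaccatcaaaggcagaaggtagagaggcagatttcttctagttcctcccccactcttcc
Cd3g, chr9:44980432-44980681, minus strand: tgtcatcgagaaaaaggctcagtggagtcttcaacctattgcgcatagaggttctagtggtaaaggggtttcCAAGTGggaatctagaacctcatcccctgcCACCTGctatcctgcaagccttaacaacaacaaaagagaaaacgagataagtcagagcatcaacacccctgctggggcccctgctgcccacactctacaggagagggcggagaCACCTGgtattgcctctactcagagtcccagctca
Rag1 and Cd3g hold 3 E-boxes each and Cd3d holds 1. Such a match was present in 66.2% of all 32851 RefSeq windows of this length, and in 29 of the 42 windows held for 26 members (69.0%). The letters TGTGGT, read on both strands as a match to RUNX factors, occurred 2 times in the Rag1 window, where the first overlaps an E-box, and in 14% of all windows. A match to TCF and LEF factors, CTTTGNT on either strand, occurred 2 times in the Cd3d window and in 16% of all windows. These are matches of letters only.

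**Figure D3:**
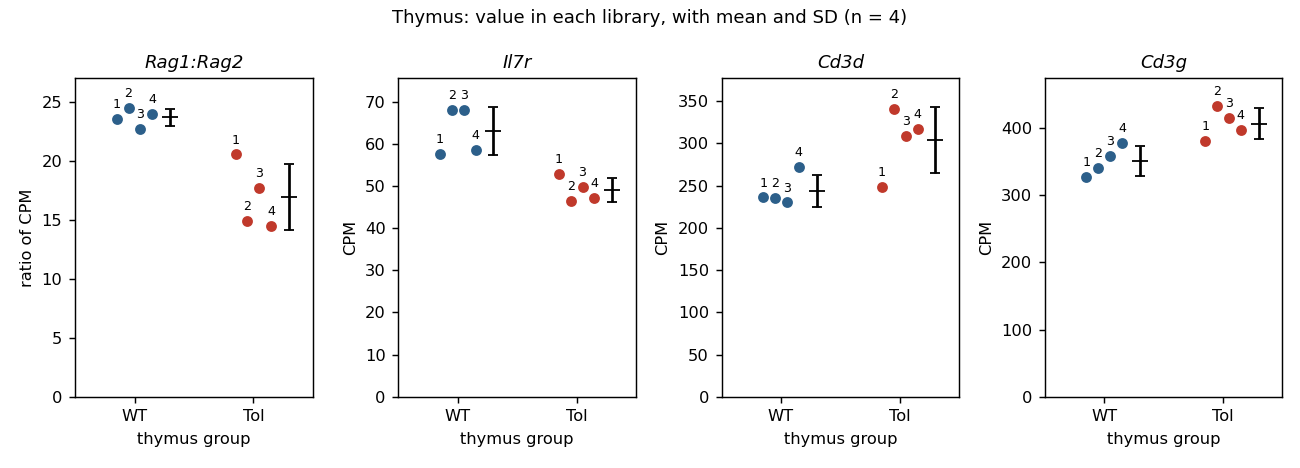
Ratio of Rag1 to Rag2 CPM and CPM of Il7r, Cd3d and Cd3g in each thymus library, WT in blue and Tol in red, with replicate numbers beside the points and the mean with SD (n = 4) as black bars. The Rag1 to Rag2 ratio is 22.7 to 24.5 in WT and 14.51 to 20.5 in Tol, while Cd3d of Tol 1 at 248.6 CPM falls inside the WT range.

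The coreceptors, which hold Lck and bind the MHC molecules, overlapped between the genotypes in all 3 genes. Cd4 was at 925.5, 792.7, 867.5 and 734.6 CPM in Tol and 858.2, 849.1, 773.4 and 908.0 in WT thymi. Cd8a spanned 1185 to 1424 CPM in Tol and 1172 to 1406 in WT, and Cd8b1 spanned 710.7 to 904.5 and 769.7 to 912.9. The log2 differences were -0.02 for Cd4 (SE 0.07), 0.07 for Cd8a (SE 0.08) and -0.02 for Cd8b1 (SE 0.08), with overlapping groups and adjusted p of 0.898, 0.603 and 0.908 in edgeR. The ratio of Cd8a to Cd4 averaged 1.57 ± 0.130 (SD, n = 4) over the Tol thymi and 1.48 ± 0.0988 (SD, n = 4) over the WT thymi, and that of Cd8b1 to Cd8a 0.622 ± 0.0155 (SD, n = 4) and 0.663 ± 0.0279 (SD, n = 4). Both ratios overlapped between Tol and WT mice.

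Of the proximal signalling genes, Txk was the one with an unadjusted p under 0.05. This kinase of the Tec family was at 71.6, 73.5, 71.6 and 66.7 CPM in Tol and 64.2, 61.7, 61.3 and 64.9 in WT thymi, so that the groups did not overlap (log2 difference 0.18, SE 0.05, adjusted p = 0.0956). Lck, the kinase that phosphorylates the CD3 chains, differed by -0.07 (SE 0.07) and Zap70, which binds them once phosphorylated, by -0.03 (SE 0.06). Lat, the scaffold that Zap70 phosphorylates, differed by 0.10 (SE 0.07) and Themis, a modulator of receptor signals during selection, by -0.06 (SE 0.09). All 4 had adjusted p between 0.430 and 0.782 in edgeR.

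Of the 10 genes in the role of transcription and chromatin factors, which includes the receptor Notch1, 3 had positive and 7 negative differences. An unadjusted p under 0.05 was found for 2 of them. Tcf7 was at 2758, 2446, 2720 and 2254 CPM in Tol and 3041, 2976, 3139 and 3065 in WT thymi. Every Tol value lay below every WT value, with the WT mice close together (log2 difference -0.26, SE 0.07, adjusted p = 0.0943). Its relative Lef1, which acts with it at the beta chain checkpoint and in CD4 cells, was at 301.8, 291.6, 324.4 and 271.6 CPM in Tol and 323.8, 336.4, 327.0 and 308.9 in WT thymi. Those groups overlapped, and the difference was -0.11 (SE 0.07, adjusted p = 0.331).

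Zbtb7b was at 30.0, 27.2, 30.8 and 27.2 CPM in Tol and 33.6, 39.4, 29.5 and 35.03 in WT thymi, where WT 3 lay among the Tol mice (log2 difference -0.25, SE 0.08, adjusted p = 0.124). Runx3 had a difference of -0.05 (SE 0.12, adjusted p = 0.822), and the ratio of Zbtb7b to Runx3 overlapped between the genotypes, at 0.884 to 1.13 in Tol and 0.973 to 1.27 in WT. Notch1 was at 320.5 CPM in Tol 1 and at 196.1 to 222.9 in the other Tol thymi, beside 211.0 to 237.6 in WT, so its difference of 0.11 (SE 0.12) turned to -0.03 without Tol 1, with adjusted p of 0.588 and 0.783. For Gata3, the commitment factor Bcl11b, Tox, which is needed for CD4 cells, Satb1 and the zinc finger factor Ikzf1, differences lay between -0.06 and 0.05, with adjusted p from 0.625 to 0.886.

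Among the adhesion and costimulation receptors, Cd2 and Cd6 were higher and Cd28 lower in Tol at an unadjusted p under 0.05. Cd6, which binds CD166 and modulates the receptor signal, was at 213.3, 226.5, 209.3 and 203.6 CPM in Tol and 188.2, 190.8, 187.6 and 201.5 in WT thymi, with no overlap (log2 difference 0.16, SE 0.06, adjusted p = 0.131). Cd2, an adhesion receptor, was at 105.9, 121.9, 121.5 and 118.9 CPM in Tol and 97.4, 107.7, 99.6 and 100.05 in WT thymi, with Tol 1 below WT 2 (difference 0.22, SE 0.07, adjusted p = 0.113). The costimulatory receptor Cd28 overlapped between groups, at 273.8 to 332.9 CPM in Tol and 318.8 to 377.4 in WT (difference -0.17, SE 0.07, adjusted p = 0.179). Cd5, whose surface level follows the strength of selection signals, differed by 0.05 (SE 0.06) and Thy1 by 0.00 (SE 0.06), with adjusted p of 0.668 and 0.987.

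All 4 receptors of survival, homing and activation had negative differences, and Il7r had the lowest p of any member. Il7r (chr15:9505788-9530176, minus strand) was at 52.8, 46.5, 49.7 and 47.2 CPM in Tol and 57.6, 67.9, 68.1 and 58.5 in WT thymi. No Tol value reached the WT range, and the log2 difference was -0.35 (SE 0.08, adjusted p = 0.0710). Ccr9, the receptor for the thymic chemokine CCL25, was at 653.5, 491.8, 647.1 and 462.9 CPM in Tol and 697.2, 710.03, 617.4 and 805.2 in WT thymi. Tol 1 and Tol 3 lay within the WT range and Tol 2 and Tol 4 below it (difference -0.32, SE 0.11, adjusted p = 0.130). The opposite-strand gene Slc6a20a, which overlaps it, was at 2.56 to 3.68 CPM in all thymi.

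Ccr7 and Cd69, read in cells that have passed positive selection, overlapped between the genotypes. Ccr7 was at 52.4 to 62.1 CPM in Tol and 54.7 to 69.3 in WT (difference -0.02, SE 0.09), and Cd69 at 42.0 to 54.4 and 47.6 to 52.9 (difference -0.07, SE 0.08), with adjusted p of 0.898 and 0.633 in edgeR. The ratio of Ccr7 to Rag1, a gene of stages before that selection, ranged from 0.0132 to 0.0241 in Tol and from 0.0108 to 0.0160 in WT thymi. That of Il7r to Ptcra ranged from 1.62 to 2.16 in Tol and from 1.98 to 3.13 in WT. Both ranges overlapped.

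Across the 35 members the thymus difference fell with transcript length, with a Spearman rho of -0.49 over genes, which are not independent and share the same 8 libraries. Correcting each library for its trend with length and GC content gave 0 called and again 11 under an unadjusted p of 0.05. Of the 16248 genes tested, 3249 were under that p with the correction and 3965 without it. Cd3g was no longer among the 11 members. Under that correction Rag1 differed by -0.33, Il7r by -0.35, Tcf7 by -0.29, Cd3d by 0.25 and Cd3g by 0.12, with adjusted p of 0.128, 0.0673, 0.0979, 0.149 and 0.301.

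Genes of the same pathways outside the 35 were read from 5 lists of 92 genes in all. None was called by edgeR in thymus, beside 0.0985% of all genes. DESeq2 called 12, beside 4.67% of its tested genes, and edgeR without thymus Tol 1 called 20, beside 18.2% of all genes. At an unadjusted p under 0.05 there were 4 higher and 23 lower in Tol, beside 13.3% and 11.1% of all genes. For genes of early progenitors this count was 0 higher and 1 lower of 12. Pre-TCR and double-positive stage factors gave 2 and 4 of 18, and TCR signalling genes beyond the members 1 and 10 of 23. Negative regulators of the receptor gave 0 and 5 of 18, and genes of selection, maturation and exit 1 and 3 of 21. The median differences of the lists were -0.10, -0.07, -0.13, -0.10 and 0.01, in that order.

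In each of these lists the gene with the lowest p is given. Erg, a factor of uncommitted progenitors, was at 0.206 to 0.959 CPM in Tol and 1.23 to 1.48 in WT (difference -1.13, SE 0.34, adjusted p = 0.0994). The survival gene Bcl2l1, which keeps double-positive cells alive, was at 156.5 to 188.6 and 140.2 to 159.3 CPM (difference 0.24, SE 0.07, adjusted p = 0.0919). Tespa1, a link from the receptor to calcium release, was at 66.9 to 80.6 in Tol and 82.1 to 93.0 in WT (difference -0.26, SE 0.06, adjusted p = 0.0814). Pag1, which brings the inhibitory kinase Csk to the membrane, was at 182.6 to 272.0 and 269.7 to 317.3 CPM (difference -0.38, SE 0.10, adjusted p = 0.0862). Bcl2l11, the death gene of negative selection, was at 64.9 to 75.8 and 81.0 to 91.8 CPM (difference -0.29, SE 0.06, adjusted p = 0.0687). Erg, Tespa1 and Bcl2l11 did not overlap between genotypes, and Bcl2l1 and Pag1 did. These genes were chosen by their p in this same comparison, which favours separated groups. Their separation therefore cannot be weighed against the 10.6% of all genes without overlap. The lowest Tol value of Erg, 0.206 CPM, was also near the limit of detection, 0.0757 to 0.136 CPM in the Tol thymi.

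Markers of other cells in the thymus were read beside these values. For B cells, 0 of 8 markers were higher and 3 lower in Tol at an unadjusted p under 0.05, beside 13.3% and 11.1% of all genes. Their summed level was 586.9 to 753.1 CPM in Tol and 650.3 to 1079 in WT. Of 6 fibroblast markers 5 were lower, with sums of 205.2 to 294.1 and 264.9 to 431.3 CPM. Thymic epithelium, which supplies CCL25 and Notch ligand, had 4 of 10 markers higher and sums of 1679 to 1862 and 1610 to 1790. Dividing cells had 3 of 8 higher, with 1819 to 2770 and 1723 to 2373 CPM, and dendritic cells and macrophages 2 of 10 lower, with 499.4 to 715.1 and 533.3 to 633.7. Over all lists, edgeR called 0 of the 83 markers it tested, beside 0.0985% of all genes. DESeq2, run without that filter, called 9 of the 97 listed, beside 4.67% of its tested genes. The part of these cells in the member values was not tested.

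Values of the remaining lists follow. Sums in Tol and WT thymus were 36.4 to 153.0 and 63.6 to 194.1 CPM for adipocytes, 156.1 to 166.6 and 156.0 to 167.8 for endothelium, 157.4 to 216.9 and 102.9 to 235.9 for erythroid cells, and 31.2 to 37.6 and 32.7 to 40.7 for gamma-delta T, NK and innate lymphoid cells. Of these, 1 endothelial marker of 6 was lower at an unadjusted p under 0.05, beside 11.1% of all genes, and none of the others differed. The neuronal lists summed to at most 28.9 CPM in any thymus, cerebellar neurons to at most 1.48, microglia to 110.0 to 132.0 and astrocytes with oligodendrocytes to 160.3 to 197.2. In this last list 1 marker of 6 was also lower in Tol thymus at an unadjusted p under 0.05 in edgeR, beside 11.1% of all genes.

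The next comparison asked which of these T cell genes are also read in brain. At 1 CPM or more in every WT library, 13 of the 35 were expressed in cerebrum and 12 in cerebellum, 10 of them in both. These 10 were the transcription and chromatin factors Bcl11b, Tcf7, Lef1, Tox, Satb1, Ikzf1 and Zbtb7b together with the receptor Notch1, Thy1 and Rag1. Lck, Zap70 and Cd6 were added in cerebrum, and Cd28 and Ccr9 in cerebellum. In contrast, 13 members were under 1 CPM in all 14 brain libraries. They were Cd3d, Cd3e, Cd3g, Cd247, Rag2, Ptcra, Cd8b1, Txk, Runx3, Cd2, Cd5, Ccr7 and Cd69, among them all 4 CD3 chains, which define T cells.

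Every member was higher in WT thymus than in WT cerebrum, 35 of 35 called in edgeR, where 45.1% of all genes were higher in thymus. Against WT cerebellum 34 of 35 were higher, beside 42.8% of all genes. The members were listed as genes of thymocytes, so this direction was set by the choice of genes and describes the list only. In the genotype comparisons within brain, 19 members passed the low-count filter in cerebrum and 25 in cerebellum. The others entered the tests against thymus through their thymus counts. Against cerebrum the median log2 difference was 10.53 for CD3 chains, 10.38 for coreceptors and 4.30 for the transcription and chromatin factor role. Against cerebellum the medians were 10.39, 10.42 and 5.59. Cd2, Cd28 and Ccr7 were under 3 counts in every WT cerebrum, and so were not detectable there. Around that limit lay Cd3g with 1 to 4 counts, Cd247 with 1 to 6, Rag2 and Cd5 with 1 to 5, Runx3 with 1 to 3 and Cd69 with 0 to 3. The size of the differences of all these genes is uncertain. Cd28 had 0 counts in all 4 WT cerebra and was at least 1780-fold higher in thymus, measured against the highest 3-count floor of those libraries.

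Thy1 was the member with the smallest difference between thymus and cerebrum. Its protein is an abundant surface glycoprotein of thymocytes and of mature neurons alike. It was at 1208, 1191, 1237 and 1348 CPM in WT thymi, 669.1, 694.4, 701.3 and 628.6 in WT cerebra and 448.0, 412.0, 327.0 and 289.7 in WT cerebella, with no overlap between organs. The log2 difference was 0.92 (SE 0.07, adjusted p = 3.93e-07) against cerebrum and 1.80 (SE 0.14, adjusted p = 9.40e-07) against cerebellum.

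Zbtb7b was the exception in cerebellum. It was at 33.6, 39.4, 29.5 and 35.03 CPM in WT thymi and 40.8, 35.5, 41.5 and 38.4 in WT cerebella, whose ranges overlapped (log2 difference -0.14, SE 0.09, adjusted p = 0.199). Without thymus WT 2, the highest thymus, the difference was -0.21 and was called (adjusted p = 0.0470). In WT cerebra Zbtb7b was at 12.5 to 20.2 CPM, below both other organs.

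Satb1, Bcl11b and Tox, factors that also act in developing and mature cortical neurons, were read in both brain parts. Satb1 was at 182.2 to 273.0 CPM in WT cerebrum, 43.8 to 53.2 in WT cerebellum and 1994 to 2223 in WT thymus. Bcl11b was at 116.6, 70.5, 215.8 and 109.4 CPM in WT cerebra and 13.4, 4.75, 1.25 and 1.47 in WT cerebella, beside 580.3 to 651.1 in thymus. Its cerebrum mean was 20.9% of the thymus mean, and among the cerebella WT 1 stood highest. Tox was at 13.9 to 33.6 CPM in WT cerebrum and 1.68 to 6.80 in WT cerebellum, 23.8% and 3.77% of its thymus mean. Notch1, the receptor that also keeps neural progenitors, was at 32.2 to 39.9 and 36.8 to 49.6 CPM, or 16.2% and 18.8% of thymus.

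Between WT cerebrum and WT cerebellum 21 members could be tested, and 13 were called in edgeR, 9 higher and 4 lower in cerebrum, beside 24.2% and 25.6% of all genes. The higher ones were Cd6 (log2 difference 5.29, SE 0.58), Bcl11b (4.64, SE 0.75, and 5.71 without cerebellum WT 1), Cd4 (3.94, SE 1.35), Tox (2.68, SE 0.46), Satb1 (2.23, SE 0.14), Lck, Zap70, Ikzf1 (1.44 each) and Thy1 (0.88, SE 0.14), with adjusted p from 1.31e-05 to 0.0385. Cd6 was at 2.49 to 8.46 CPM in WT cerebra and at no more than 0.256 in WT cerebella. Rag1 (-1.04, SE 0.30, adjusted p = 0.0193), Lat (-1.19, SE 0.30) and Zbtb7b (-1.24, SE 0.15) were lower in cerebrum, and Cd28, at 1.75, 1.04, 2.50 and 1.42 CPM in WT cerebella, was at least 8.59-fold higher there than in cerebrum. For Rag1, at 2.81, 1.04, 1.20 and 1.66 CPM in WT cerebra and 3.29, 3.41, 4.02 and 3.32 in WT cerebella, the gene B230118H07Rik that shares its exons was at 17.4 to 19.1 and 24.0 to 27.8 CPM, and reads of the shared exons cannot be told apart.

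The call for Cd4 rested on 1 library. Cd4 was at 1.24, 0.651, 41.2 and 1.37 CPM in WT cerebra and 0.518 to 0.898 in WT cerebella. Only cerebrum WT 3 was high among the WT mice, and without it the log2 difference was 0.61 (adjusted p = 0.171). Among the Tol cerebra Cd4 was at 2.92, 1.88, 2.02 and 19.0 CPM, with Tol 4 high. The same 2 libraries led in Drd1 (139.2 and 72.9 CPM) and in Penk, an enkephalin gene of striatal neurons (660.7 and 388.2 CPM beside 15.6 to 78.0 in the other cerebra), and also in Bcl11b (215.8 and 157.9 CPM beside 55.7 to 116.6). Of the CD3 chains, Cd3d, Cd3e and Cd3g in these libraries were at or below the highest of the other cerebra, while Cd247 was highest in Tol 4, at 0.466 CPM or 6 counts beside 0.0651 to 0.324 CPM, and at 0.241 in WT 3. Rag2 (0.543 CPM, 7 counts) and Dntt (0.931 CPM, 12 counts) were also highest in Tol 4, which had the lowest total count, and WT 3 was lowest of the cerebra in Rag2 (0.0602 CPM). The part of tissue composition in these values was not tested.

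**Figure D4:**
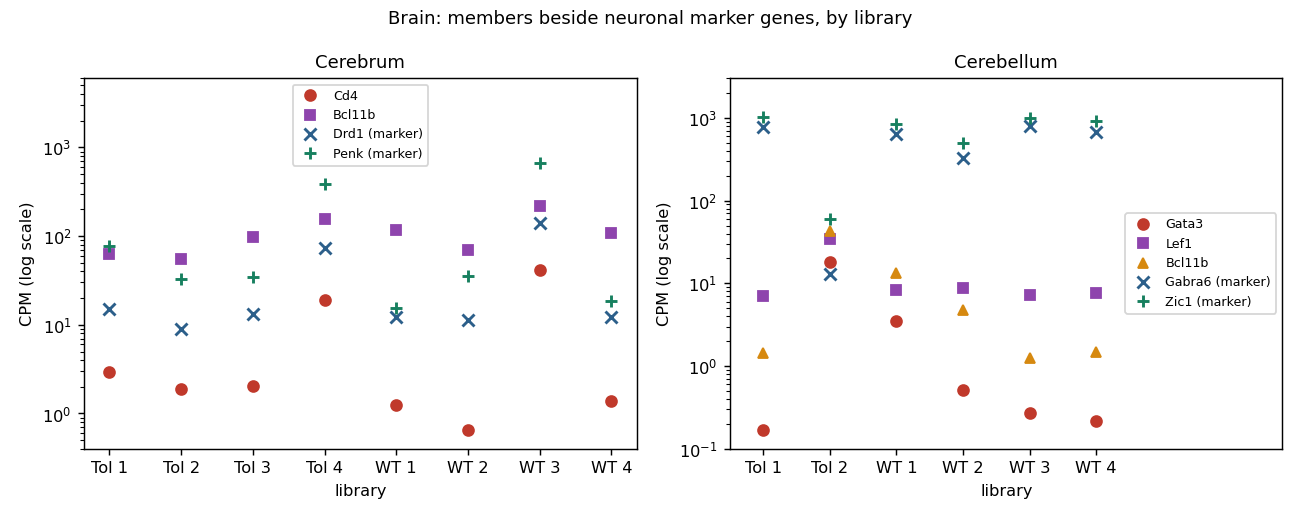
CPM on a log axis in each cerebrum library (left: the members Cd4 and Bcl11b beside the striatal genes Drd1 and Penk) and each cerebellum library (right: Gata3, Lef1 and Bcl11b beside the granule cell genes Gabra6 and Zic1). Cd4 is highest in cerebrum WT 3 and Tol 4, the 2 libraries highest in Drd1 and Penk, and in cerebellum Tol 2 the 3 members are highest where Gabra6 (13.0 CPM) and Zic1 (59.7 CPM) are lowest.

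In cerebrum, 19 members could be tested between Tol and WT mice. None was called by edgeR or by DESeq2, where 0% and 0.742% of all genes were, and 1 had an unadjusted p under 0.05 beside 9.66% of all genes. That gene was Notch1, at 43.2, 43.2, 43.6 and 41.4 CPM in Tol and 36.8, 32.2, 34.9 and 39.9 in WT cerebra. The Tol values lay above all WT values (log2 difference 0.25, SE 0.08, adjusted p = 0.340). For Bcl11b the difference was -0.44 (SE 0.40), for Tox 0.10 (SE 0.25), for Satb1 -0.03 (SE 0.15) and for Thy1 0.00 (SE 0.08), all with overlapping groups and adjusted p of 0.764 or more.

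In cerebellum, with 2 Tol and 4 WT libraries, 25 members could be tested, none was called by edgeR or DESeq2 (0% and 0.0364% of all genes), and 1 had an unadjusted p under 0.05, beside 3.16% of all genes. That was Lef1, at 7.001 and 33.9 CPM in Tol and 8.25, 8.73, 7.18 and 7.59 in WT cerebella. The difference of 1.39 (SE 0.55, adjusted p = 0.957) came from the library labelled cerebellum Tol 2 and turned to -0.20 without it (adjusted p = 0.979). That library also had 18.0 CPM of Gata3 against 0.168 to 3.46 in the other cerebella, 43.4 of Bcl11b against 1.25 to 13.4, and 16.2 of Tox against 1.68 to 6.80. Cerebellum WT 1 was the next highest in Gata3, Bcl11b and Tox.

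Whether the effect of genotype on a member differed between cerebrum and thymus was tested as an interaction over 16 libraries. None of the 35 passed in edgeR, beside 0.107% of all genes, and 4 had an unadjusted p under 0.05, beside 16.5%. These were Cd28, Cd8b1 (difference of log2 differences -1.06, SE 0.43), Cd3d (-0.86, SE 0.32) and Cd8a (-0.61, SE 0.28), with adjusted p of 0.153, 0.228, 0.246 and 0.277. DESeq2 called Cd28 alone, beside 1.66% of its genes. Cd28 had 0.584, 0, 0 and 0.854 CPM in Tol and 0 in all WT cerebra, so its fitted difference is not given. Cd8b1 was at 0.0987 to 0.540 CPM in cerebrum, Cd3d at 0.296 to 0.649 and Cd8a at 0.494 to 1.35, beside 3-count floors of 0.146 to 0.233.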

How the data were processed

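RNA from frozen tissue was sequenced as poly(A)-selected stranded libraries. The authors estimated counts with Salmon 0.14.1 on GRCm38 transcripts with the Tol sequence added, and the deposited estimated counts are whole numbers per gene without normalization, so no rounding was needed. The submitters' processing notes also name edgeR 3.9. The strand setting, the annotation release and the summing of transcripts to genes are not given in the sources used here. Groups and replicate numbers came from the labels.

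Counts were tested in R 4.3.3 with edgeR 4.0.16 (TMM, filterByExpr, quasi-likelihood F test, Benjamini-Hochberg over all genes). The SE of a log2 difference is its size divided by the square root of F. CPM use TMM over 22 libraries. Lengths, positions and overlaps are from GENCODE vM21, which matched 34530 of 34584 genes, and the length is that of the longest basic transcript. A gene counted as expressed at 1 CPM or more in every WT library of an organ. Floors of 3 counts cover counting error only. Alternatives were DESeq2 1.42.0, DESeq2's size factors within edgeR, no filter on low counts, the replicate number as a block, a correction for length and GC content in the genotype comparisons, all 22 libraries in one fit, leaving out each library, and expression limits of 0.5 and 5 CPM. The test was checked on simulated counts.

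The genes named are all members and, of each of the 5 pathway lists, the gene with the lowest p in thymus; Mki67, Drd1, Penk, Gabra6, Zic1, B230118H07Rik and Slc6a20a were named after their values were seen. The members, the pathway lists and the 14 marker lists were chosen with earlier results of these data known. Replicates are libraries that the labels number separately. The labels do not say whether equal numbers pair mice or mark organs of the same mouse, and the tests treat libraries as independent. The correlation of same-numbered deviations ranged from -0.10 to 0.05 in thymus, from -0.27 to 0.30 in cerebrum and from -0.17 to 0.60 over the 2 numbers in cerebellum. Such correlations cannot show that mice are unpaired, and with 2 Tol cerebella the deviations of these mirror each other. No pair of libraries agreed within sampling noise (chi-square over its degrees of freedom, 5.28 to 223.5).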

Additional observations from a re-analysis of the deposited data

Results flagged for a closer look

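Of 125 groups of 4 libraries examined, 8 held a library whose distance from its nearest neighbour took up most of the group's range (Dixon's criterion), where chance gives about 1 in 20, or 6.25. In thymus, WT 4 had 272.5 CPM of Cd3d beside 230.1 to 236.0 in the other WT mice. The same library had 2223 CPM of Satb1 beside 1994 to 2012. Thymus WT 1 had a Zbtb7b to Runx3 ratio of 0.973 beside 1.24 to 1.27.

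In brain, cerebrum WT 3 had 41.2 CPM of Cd4 beside 0.651 to 1.37 and 10.3 CPM of Tcf7 beside 4.75 to 4.82. Cerebrum Tol 4 had 19.0 CPM of Cd4 beside 1.88 to 2.92. Cerebellum WT 1 had 3.46 CPM of Gata3 beside 0.216 to 0.518. Cerebellum WT 3 had 4.02 CPM of Rag1 beside 3.29 to 3.41.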

How the results depend on the processing

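In thymus 0 members were called by edgeR and 9 by DESeq2, and leaving out 1 library gave 0 to 9, the 9 without Tol 1. For the interaction DESeq2 gave 1, Cd28 (adjusted p = 0.0304), in place of 0. Leaving out 1 library gave 11 to 14 called members between WT cerebrum and cerebellum, beside 13. At 5 CPM, 7 members counted as expressed in cerebrum and 5 in cerebellum, in place of 13 and 12, and at 0.5 CPM 18 and 15. Without cerebellum Tol 2, Lef1 turned to -0.20, and without cerebellum Tol 1 it was 2.12. With the replicate block, 0 members were called in the genotype comparisons, and Cd4 between WT cerebrum and cerebellum fell to 2.02 (adjusted p = 0.192), the 1 call that the replicate block ended. With each WT cerebellum left out in turn, Cd4 also lost its call (adjusted p = 0.0768 to 0.0836), and Rag1 lost it without cerebrum WT 3 (adjusted p = 0.0504) or cerebellum WT 3 (0.0522). Tcf7, at 0.84 (adjusted p = 0.0508), was called with DESeq2's size factors, DESeq2, all 22 libraries, or without cerebellum WT 2 (adjusted p = 0.0455, 0.0252, 0.00687 and 0.0238). Of 671 refits of single results, 628 kept direction and side of the threshold. The 2 Tol cerebella limit that comparison, and members under the floor cannot be called absent.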
